A study of Rattus norvegicus with 4 samples.

Results

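Neutrophils and the other phagocytes that share their granule proteins were followed through 10 genes, S100a8, S100a9, Fcnb, Lyz2, Mpo, Elane, Lcn2, Csf3r, Ltf and Camp, in RNA of AA4-selected cells from the pancreatic lymph node of BioBreeding rats. Every probe set that the platform's annotation ties to exactly 1 of these symbols was used, dim ones included, which gave 7 probe sets for 7 of the 10 genes, out of 31099 probe sets and 14217 genes named in that way. Mpo, Elane and Ltf were tied to no probe set and are not analysed here. The diabetes-prone pool held cells of 8 female DRlyp/lyp rats at day 65, which carry the lyp mutation of Gimap5, and the resistant pool held cells of 8 female DR+/+ rats at day 65, which carry the normal gene. The groups share the BioBreeding background, the sex, the age, the lymph node and selection with AA4, an antibody to a ganglioside on the surface of rat mast cells. Each pool was amplified and hybridised 2 times, giving 4 arrays. The p-values below therefore measured the spread between amplifications of 1 pool, compared 2 pools and say nothing of the spread between animals.

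Neutrophils carry preformed antimicrobial proteins in granules that are filled in sequence while the cells mature in the bone marrow. Azurophil granules, made first, hold myeloperoxidase (Mpo) and neutrophil elastase (Elane). Specific granules, made next, hold lactoferrin (Ltf), the siderophore-binding lipocalin (Lcn2) and the cathelicidin precursor (Camp). S100a8 and S100a9 form calprotectin, a metal-binding complex that fills the cytosol. Many of the 10 genes are not restricted to neutrophils: lysozyme (Lyz2) is made in quantity by macrophages, and S100a8, S100a9, the ficolin Fcnb and Csf3r are also transcribed in monocytes.

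The deposited values are linear signals, and a probe set was tested where 2 or more of the 4 arrays exceeded 28.3, the median over all arrays. Signals were floored at 6.8, the pooled 25th percentile, before the log2 transformation. Gimap5 itself read 518 and 515 in the DRlyp/lyp pool against 400 and 532 in the DR+/+ pool (adjusted p = 0.362, limma), and since the lyp mutation changes the sequence of the transcript, its level does not check the labels. The labelled cell type was only in part borne out by its markers. Of 13 mast cell genes with a probe set 11 were tested, among them the carboxypeptidase Cpa3. Of all 14217 genes with a probe set of 1 symbol, 9349 were tested, so passing the filter was common and does not show the cell type. Kit, the stem cell factor receptor carried by mast cells, lay below the filter on every array and was not tested. It read 1.4 and 2.0 in the DRlyp/lyp pool against 10.4 and 11.3 in the DR+/+ pool, which does not show that it is absent. The difference between the 3′ and the 5′ control probe sets, which grows as amplified RNA gets shorter, exceeded in the DRlyp/lyp pool that of the DR+/+ pool by 1.44 for beta-actin and by 0.81 for GAPDH on the log2 scale. It accompanied every difference below, and its part in them was not tested.

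Of the 7 genes with a probe set, 4 were higher in the DRlyp/lyp pool: S100a8, Fcnb, Lyz2 and Csf3r, by 1.47- to 1.95-fold. S100a9 and Camp did not pass the threshold, and Lcn2 lay below the floor on every array and was not tested. No member was lower. The 4 higher members are 4 of 6 tested, while 19.3% of all 16068 probe sets tested were called higher and 19.9% lower (limma, adjusted p under 0.05), so calls were frequent on these arrays. No member passed the threshold with a change of at least 2-fold, which 6.07% of all probe sets did in the higher direction.

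Of calprotectin's subunits, S100a8 passed the threshold and S100a9 did not. S100a8 read 289 and 326 in the DRlyp/lyp pool against 133 and 196 in the DR+/+ pool. Both DRlyp/lyp arrays lay above both DR+/+ arrays, although the DR+/+ arrays themselves differed by 1.47-fold. The means were 307 ± 26.1 in DRlyp/lyp and 165 ± 44.4 in DR+/+ (SD, n = 2 arrays of 1 pool each), a log2 difference of 0.92 (SE 0.19, adjusted p = 0.00221, limma). Without DRlyp/lyp replicate 2 the difference was 0.84 and missed the threshold (adjusted p = 0.0508).

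S100a9, the larger subunit, whose gene neighbours S100a8 on chromosome 2 with 0 annotated genes between them, read 439 and 458 in the DRlyp/lyp pool against 338 and 404 in the DR+/+ pool. The pools did not overlap, but the gap between them was smaller than the spread of the DR+/+ arrays. The log2 difference was 0.28, with a 95% interval of 0.01 to 0.55 and an adjusted p of 0.0986 (limma). Without DR+/+ replicate 2 it was 0.41 and past the threshold (adjusted p = 0.0291).

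The log2 ratio of S100a8 to S100a9 signal was -0.60 and -0.49 on the DRlyp/lyp arrays and -1.34 and -1.04 on the DR+/+ arrays. Its difference of 0.65 is the amount by which the S100a8 change exceeded that of S100a9. An exact two-sided permutation test of this ratio gave p = 0.333, the smallest that 2 arrays against 2 allow (adjusted p = 0.333 over 2 ratios, both chosen after the values were seen). The ratios of the pools did not overlap. Since no smaller p was possible, the test could neither show nor exclude a difference in change between the subunits. Their 95% intervals overlap (0.52 to 1.33 for S100a8), which does not test that difference either.

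**Figure D1:**
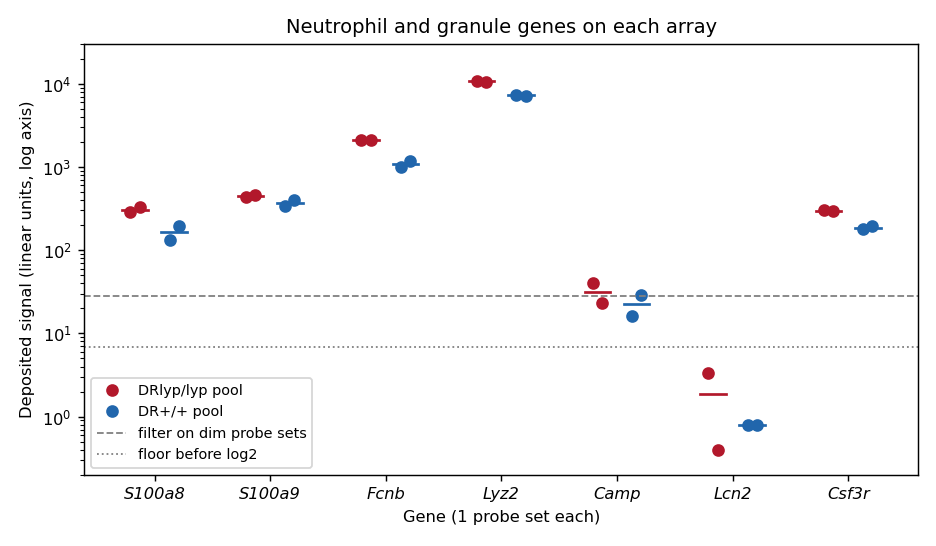
Signal of the 7 measured genes on each array (points, linear units on a log axis), with the mean of each pool as a bar, for the DRlyp/lyp pool (left of each pair) and the DR+/+ pool; the dashed line is the filter at 28.3 and the dotted line the floor at 6.8. The pools do not overlap for S100a8, S100a9, Fcnb, Lyz2 and Csf3r, Camp straddles the filter in both pools, and Lcn2 lies below the floor on all 4 arrays.

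Fcnb, ficolin B, is a lectin of the complement system that binds sugars on microbes and is made by myeloid cells. It read 2078 and 2119 in the DRlyp/lyp pool against 994 and 1168 in the DR+/+ pool. The difference was 0.96 on the log2 scale (SE 0.09, 95% interval 0.78 to 1.15, adjusted p = 6.60e-06, limma), close to that of S100a8, which was the larger of the pair after quantile normalization (0.97 for S100a8 and 0.94 for Fcnb) and without DRlyp/lyp replicate 1 or DR+/+ replicate 2. The pools were separated by far more than the arrays of either pool differed among themselves.

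Lyz2, lysozyme, cleaves bacterial cell walls. It read 10794.5 and 10459 in the DRlyp/lyp pool against 7377 and 7127 in the DR+/+ pool. Arrays of 1 pool differed by no more than 1.04-fold, and the pools did not overlap. The log2 difference was 0.55 (SE 0.04, adjusted p = 2.10e-06, limma). It is the member whose size depended most on scaling: after quantile normalization it was 0.23 (adjusted p = 0.000555). The log2 ratio of Fcnb to Lyz2 signal was -2.38 and -2.30 on the DRlyp/lyp arrays against -2.89 and -2.61 on the DR+/+ arrays, a difference of 0.41 (exact two-sided permutation test, p = 0.333, the smallest possible).

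Csf3r encodes the receptor for granulocyte colony-stimulating factor, the cytokine that drives neutrophil production. It read 301 and 293 in the DRlyp/lyp pool against 179 and 193 in the DR+/+ pool. Again the pools did not overlap, and the arrays of a pool lay within 1.08-fold of each other. The log2 difference was 0.68 (SE 0.14, 95% interval 0.37 to 0.99, adjusted p = 0.00278, limma). Without DRlyp/lyp replicate 1 it was 0.66 and just missed the threshold (adjusted p = 0.0517). Its ligand Csf3, measured by another probe set, stayed at or below 9.9 on all 4 arrays and was not tested.

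The members of specific granules were dim. Camp, the precursor of the antimicrobial peptide cathelicidin, read 40.0 and 22.9 in the DRlyp/lyp pool against 16.3 and 28.8 in the DR+/+ pool. The pools overlapped, and 1 array of each lay above the filter. The log2 difference of 0.48 had a 95% interval of -0.54 to 1.5 (adjusted p = 0.445, limma), so neither a change of more than 2-fold nor an absence of change can be read from it. Lcn2, which starves bacteria of iron, read 3.3 and 0.4 in the DRlyp/lyp pool against 0.8 and 0.8 in the DR+/+ pool, and no fold is given.

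**Figure D2:**
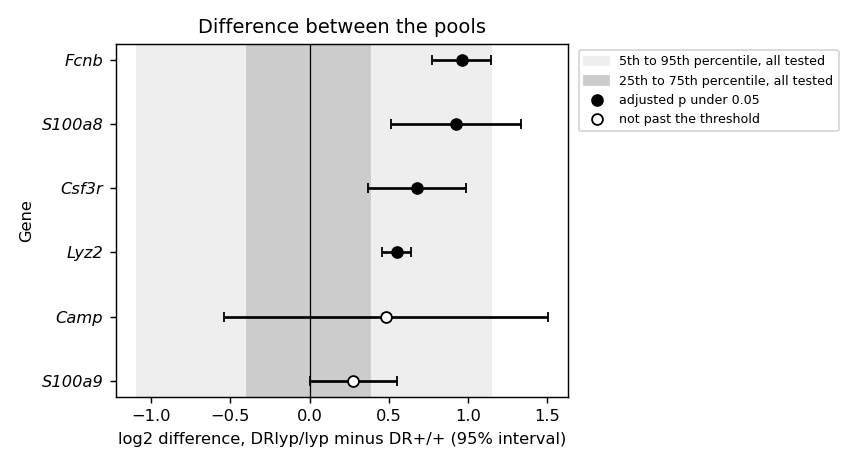
Log2 difference, DRlyp/lyp minus DR+/+, of the 6 tested members with 95% intervals from limma; filled points have an adjusted p under 0.05. The dark band spans the 25th to the 75th percentile of all 16068 probe sets tested (-0.40 to 0.38) and the light band the 5th to the 95th (-1.09 to 1.14): S100a9 lies inside the dark band, and the other 5 lie between the edges of the dark and the light band.

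Set among all probe sets tested, the members' differences were moderate. Fcnb exceeded 92.8% of them, S100a8 92.2%, Csf3r 86.8%, Lyz2 82.3%, Camp 79.6% and S100a9 68.9%. The median log2 difference of the 6 tested members was 0.61, and that of all probe sets tested was close to 0. The 5 members whose pools did not overlap were higher in the DRlyp/lyp pool, a pattern that 34.6% of all probe sets tested also showed, with 35.4% not overlapping in the other direction. The 3 genes whose 4 centred log2 values lay nearest to those of Fcnb, among 9349 genes, were Plcd1 (Euclidean distance 0.02), Ruvbl2 (0.03) and Ube4b (0.05), with only 4 arrays behind this likeness.

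The sequence just before the annotated start was read from RefSeq (GRCr8 assembly) for 3 of the 4 higher members and for S100a9, to show which binding motifs of myeloid factors stand there. The 250 bases before the start lie at chr3:31800189-31800438 (minus strand) for Fcnb, chr7:54798012-54798261 (minus strand) for Lyz2, chr5:143582970-143583219 (plus strand) for Csf3r and chr2:178490623-178490872 (minus strand) for S100a9. They are written 5′ to 3′ along the gene, and capitals mark matches on either strand to GAGGAA, a core bound by the myeloid factor PU.1, or to TTGCNNAA, a core bound by factors of the C/EBP family.
Fcnb: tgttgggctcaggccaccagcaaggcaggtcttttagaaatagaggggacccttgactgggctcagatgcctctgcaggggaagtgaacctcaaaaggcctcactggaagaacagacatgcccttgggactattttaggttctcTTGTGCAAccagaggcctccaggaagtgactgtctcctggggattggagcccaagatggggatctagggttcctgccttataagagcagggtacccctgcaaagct
Lyz2: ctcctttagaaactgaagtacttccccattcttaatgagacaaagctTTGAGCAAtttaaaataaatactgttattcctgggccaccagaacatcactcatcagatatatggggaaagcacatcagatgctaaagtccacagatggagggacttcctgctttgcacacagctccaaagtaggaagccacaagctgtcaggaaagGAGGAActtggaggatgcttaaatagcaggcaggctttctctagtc
Csf3r: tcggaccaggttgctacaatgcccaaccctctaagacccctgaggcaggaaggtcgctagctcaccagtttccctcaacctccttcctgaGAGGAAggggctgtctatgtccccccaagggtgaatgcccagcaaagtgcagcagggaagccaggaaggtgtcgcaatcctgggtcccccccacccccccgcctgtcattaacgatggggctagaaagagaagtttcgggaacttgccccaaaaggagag
S100a9: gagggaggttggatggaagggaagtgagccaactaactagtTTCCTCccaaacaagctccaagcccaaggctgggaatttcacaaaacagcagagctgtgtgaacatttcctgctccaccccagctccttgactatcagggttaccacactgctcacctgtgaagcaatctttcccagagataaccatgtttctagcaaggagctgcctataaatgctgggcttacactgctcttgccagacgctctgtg

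GAGGAA was found 1 time each before Lyz2, Csf3r and S100a9, starting at positions -46, -160 and -209 from the annotated start, and was not found before Fcnb. TTGCNNAA was found before Fcnb (TTGTGCAA at -106) and Lyz2 (TTGAGCAA at -203), and was not found before Csf3r or S100a9. Of 33465 RefSeq windows of the same length, 23.3% held GAGGAA and 9.2% TTGCNNAA. A looser form, TTNCNNAA, which was searched first, was found before all 4 genes and in 37.2% of the windows. Of the members without a call, the untested Lcn2 also held TTGCNNAA (TTGCTCAA at -191), and Camp held none of the 3 forms. The GAGGAA and TTGCNNAA matches do not overlap, whereas each TTGCNNAA match is also a match to the looser form, and a match describes letters only. S100a8 is named without its sequence.

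Other genes of the neutrophil programme, described through 7 lists, did not share 1 direction. Of 33 genes with a tested probe set, 12 had a higher and 8 a lower signal in DRlyp/lyp, where 20.9% of all 9349 genes tested were higher and 21.1% lower (limma, adjusted p under 0.05, brightest tested probe set per gene). Sizes given below as higher or lower by an amount are log2 differences, and values with ± are mean signal and SD over the 2 arrays of a pool. Granule and oxidase genes held most of the higher calls. The attractant and growth factor list held 3 of the 8 lower ones, more than any other list.

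Only 3 of the 9 genes on the azurophil granule list had a probe set, so most of that list was not measured. Of these 3, all tested, 2 were higher and 0 lower (median log2 difference 0.44). Serpinb1a, an inhibitor of neutrophil proteases, was higher by 0.45 (4621 ± 77.0 in DRlyp/lyp against 3393 ± 72.5 in DR+/+). A second, dimmer set of Serpinb1a differed by 0.12 and did not pass the threshold (adjusted p = 0.686, limma). Srgn, the proteoglycan core on which granule proteases are packed, was higher by 0.44 (3924 ± 247 in DRlyp/lyp against 2895 ± 69.9 in DR+/+). Ctsc, which activates those proteases, differed by -0.07 on its brightest probe set (adjusted p = 0.446), whereas a second set was lower by 1.19 on the log2 scale (849 ± 32.0 in DRlyp/lyp against 1933 ± 37.2 in DR+/+). Both sets had a negative difference, but its size and the call on Ctsc rest on the probe set chosen.

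Of 8 genes of specific and gelatinase granules 3 were higher and 1 lower (median 0.30). Hp, haptoglobin, was higher by 0.97 (223 ± 20.7 in DRlyp/lyp against 114 ± 0.78 in DR+/+), Chi3l1, a chitinase-like protein, by 0.70 (1551 ± 81.9 in DRlyp/lyp against 957 ± 27.6 in DR+/+) and Slpi, a secreted protease inhibitor, by 0.35 (6121 ± 104 in DRlyp/lyp against 4789 ± 134 in DR+/+). Mmp8, neutrophil collagenase, was the lower one, at 10.9 and 27.0 in the DRlyp/lyp pool against 49.7 and 46.6 in the DR+/+ pool. The DRlyp/lyp values were both under the filter, so Mmp8 was at least 1.70-fold lower (adjusted p = 0.0247). That call was lost without DRlyp/lyp replicate 1, DR+/+ replicate 1 or DR+/+ replicate 2 (adjusted p = 0.206, 0.0989 and 0.0807).

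The subunits of the phagocyte oxidase, which makes superoxide, split in direction. Of 4 tested, Ncf4 was higher by 0.66 (1452 ± 20.2 in DRlyp/lyp against 924 ± 163 in DR+/+) and Rac2, its small GTPase, by 0.51 (5279 ± 273 in DRlyp/lyp against 3700 ± 143 in DR+/+), while Cyba was lower by 0.67 on the log2 scale (1119 ± 32.7 in DRlyp/lyp against 1781 ± 182 in DR+/+). Cybb, the catalytic subunit, differed by 0.04 on its brightest set (adjusted p = 0.536), with -1.46 on a second set (305 ± 7.64 in DRlyp/lyp against 840.5 ± 43.7 in DR+/+, adjusted p = 1.37e-06). Unlike those of Ctsc, the sets of Cybb do not give 1 direction. The list median was 0.28. Ncf1 had a probe set but was not tested, since fewer than 2 arrays exceeded the filter. It read 3.1 and 17.7 in the DRlyp/lyp pool against 51.6 and 28.3 in the DR+/+ pool.

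Of 6 transcription factors of the granulocyte lineage 2 were higher and 1 lower (median 0.63). Runx1, needed for blood stem cell formation, was higher by 1.35 (1659 ± 187 in DRlyp/lyp against 648 ± 30.3 in DR+/+). Cebpa, required for the granulocyte lineage, was higher by 0.66 (261 ± 9.48 in DRlyp/lyp against 165 ± 12.7 in DR+/+), but missed the threshold when DRlyp/lyp replicate 2 was left out (adjusted p = 0.0715) and when its probe sets were averaged (0.07, adjusted p = 0.846). Cebpb, a factor of inflammatory and emergency myeloid responses, was lower by 0.89 on the log2 scale (347 ± 95.3 in DRlyp/lyp against 636 ± 99.6 in DR+/+).

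Among surface receptors 2 of 8 tested were higher and 2 lower (median 0.10). Csf2ra, a chain of the GM-CSF receptor, was higher by 0.60 (782 ± 37.5 in DRlyp/lyp against 516 ± 0.92 in DR+/+). Itgb2, the common chain of the beta-2 integrins, was higher by 0.19 (2023 ± 67.7 in DRlyp/lyp against 1770.5 ± 28.4 in DR+/+, adjusted p = 0.0385), lost when any 1 of the 4 arrays was left out (adjusted p of 0.0625 to 0.25), after quantile normalization (0.17, adjusted p = 0.0581) and with arrays centred on the median (0.08, adjusted p = 0.539). Lower were the Fc receptor Fcgr3a, by 1.29 on the log2 scale (152.5 ± 1.70 in DRlyp/lyp against 374 ± 2.90 in DR+/+), and Itgam, the integrin chain of neutrophils and macrophages, by 0.84 (71.2 ± 1.48 in DRlyp/lyp against 127 ± 6.79 in DR+/+). Itgam missed the threshold without DRlyp/lyp replicate 1 or 2 (adjusted p = 0.0657 and 0.0547).

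Of 10 genes of the attractant and growth factor list with a probe set, only 4 were tested, and all 4 were called. The other 6, Csf3, Cxcl3, Ppbp, Csf2, Il17f and Cxcl6, were too dim to be tested. Cxcl2 and Cxcl1 draw neutrophils through Cxcr2. Cxcl2 read 20.4 and 30.8 in the DRlyp/lyp pool against 272 and 215.5 in the DR+/+ pool, and Cxcl1 22.2 and 2.6 in DRlyp/lyp against 109.5 and 83.4 in DR+/+. Both were lower (adjusted p = 3.76e-06 for Cxcl2 and 0.000693 for Cxcl1). Cxcl1 was at least 3.38-fold lower, since both DRlyp/lyp arrays were dim, and it passed the filter only through the DR+/+ arrays. For Cxcl2, of which 1 DRlyp/lyp array exceeded the filter, the fitted log2 difference of -3.27 depends on how low signal is treated and was -1.96 when 50 was added to every signal instead of flooring. Il6 was lower by 1.07 on the log2 scale (43.2 ± 2.76 in DRlyp/lyp against 91.4 ± 12.3 in DR+/+), which missed the threshold once DRlyp/lyp replicate 2 was left out (adjusted p = 0.0590). Il1b, which promotes neutrophil recruitment, was higher by 0.39 (965 ± 48.6 in DRlyp/lyp against 737 ± 38.1 in DR+/+), which missed the threshold once DRlyp/lyp replicate 1 was left out (adjusted p = 0.0928) and once each array was centred on its median (adjusted p = 0.0589).

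**Figure D3:**
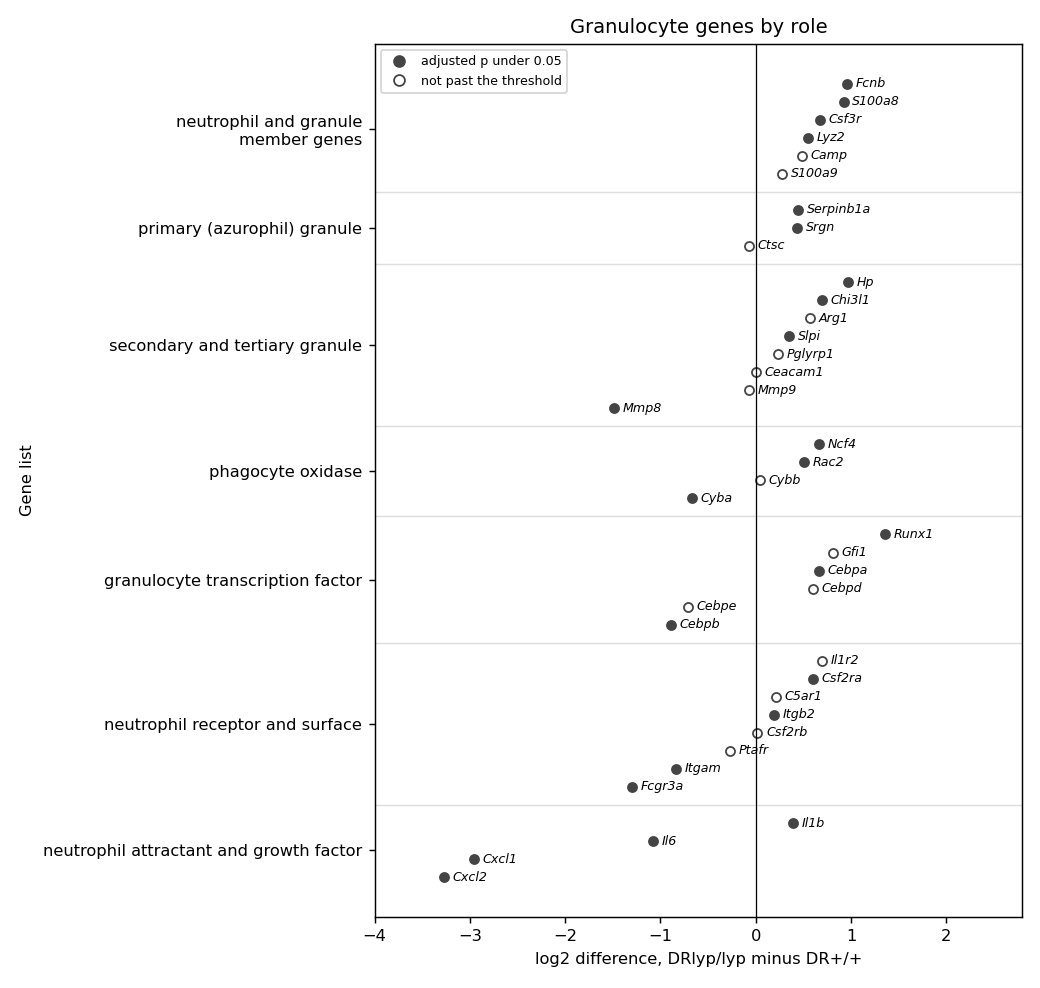
Log2 difference, DRlyp/lyp minus DR+/+, of each tested gene (1 point per gene, its brightest tested probe set), by role; filled points have an adjusted p under 0.05. Member genes all lie right of 0, granule and oxidase genes fall on both sides, and Cxcl1, Cxcl2 and Il6 lie to the left.

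Among receptors typical of neutrophils, 3 were not tested because fewer than 2 arrays exceeded the filter. The chemokine receptor Cxcr2 read 12.0 and 1.7 in the DRlyp/lyp pool against 1.7 and 4.0 in the DR+/+ pool, and Cxcr1 11.9 and 1.2 in DRlyp/lyp against 6.0 and 7.5 in DR+/+. The leukotriene B4 receptor Ltb4r read 7.0 and 28.7 in DRlyp/lyp against 8.9 and 3.5 in DR+/+. Cxcr1 and Cxcr2 lay below the filter on every array, and Ltb4r exceeded it on 1 DRlyp/lyp array. All 7 antimicrobial peptide genes with a probe set, of 14 listed, were also untested, and the neutrophil defensin Np4 read 27.0 and 15.3 in the DRlyp/lyp pool against 22.7 and 11 in the DR+/+ pool. Signal below the filter is not shown to be above background, nor shown to be absent.

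Signal of other cell types also differed between the pools, in both directions, and its part in the members' differences was not tested. In bulk RNA, fewer cells of a type cannot be told apart from less of a transcript per cell. Monocyte markers did not shift together: of 7 tested, 1 was higher, the proteoglycan Vcan by 2.13 (291 ± 6.72 in DRlyp/lyp against 69.2 ± 26.7 in DR+/+), and 1 lower, the receptor Csf1r by 0.67 (980 ± 82.8 in DRlyp/lyp against 1558 ± 2.40 in DR+/+), and their summed signal was 5085 and 5098 in the DRlyp/lyp pool against 5454 and 5858 in the DR+/+ pool. F13a1 alone among them was below the filter throughout. Of 9 resident macrophage markers 2 were higher, such as Cd68 by 0.50 (2540 ± 39.1 in DRlyp/lyp against 1796 ± 70.8 in DR+/+), and 6 lower, such as C1qa by 1.10 (1270.5 ± 25.3 in DRlyp/lyp against 2720 ± 69.5 in DR+/+). Their summed signal was lower in the DRlyp/lyp pool, at 6644 and 6903 in DRlyp/lyp against 10888 and 11539 in DR+/+.

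Lymphoid, erythroid and pancreatic markers differed too. Rats with the lyp mutation are known for a loss of peripheral T cells. The T cell markers here went the opposite way, and the reason was not tested. T cell markers summed to 8970 and 8915 in the DRlyp/lyp pool against 1724 and 1785 in the DR+/+ pool (10 of 10 tested higher, Cd28 dim), and exocrine pancreas markers to 8652 and 8867 in DRlyp/lyp against 215 and 221 in DR+/+ (10 of 10 higher, several dim in the DR+/+ pool). Erythroid markers summed to 2213 and 2105 in DRlyp/lyp against 911 and 913 in DR+/+, with 2 of 3 tested higher, 1 lower, and Slc4a1 and Ahsp dim. B cell markers summed to 10573 and 11274 in DRlyp/lyp against 12889 and 14084 in DR+/+, with 0 of 7 higher and 3 lower. These are sums of RNA signal and do not measure the share of any cell type.

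Mast cell markers summed to 3303 and 3187 in the DRlyp/lyp pool against 2181.7 and 2156 in the DR+/+ pool, with 4 of 11 tested higher and 3 lower. The chymase Mcpt1 (1633 ± 44.5 in DRlyp/lyp against 662 ± 9.55 in DR+/+) made up most of the gap between these sums. Eosinophil and basophil markers summed to 394 and 398 in DRlyp/lyp against 496 and 469 in DR+/+, with 0 of 3 tested higher and 1 lower, while Epx, Ccr3, Il5ra and Alox15 stayed below the filter on all 4 arrays. The 7 measured member genes summed to 13944 and 13678 in the DRlyp/lyp pool against 9039 and 9118 in the DR+/+ pool, mostly from Lyz2.

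**Figure D4:**
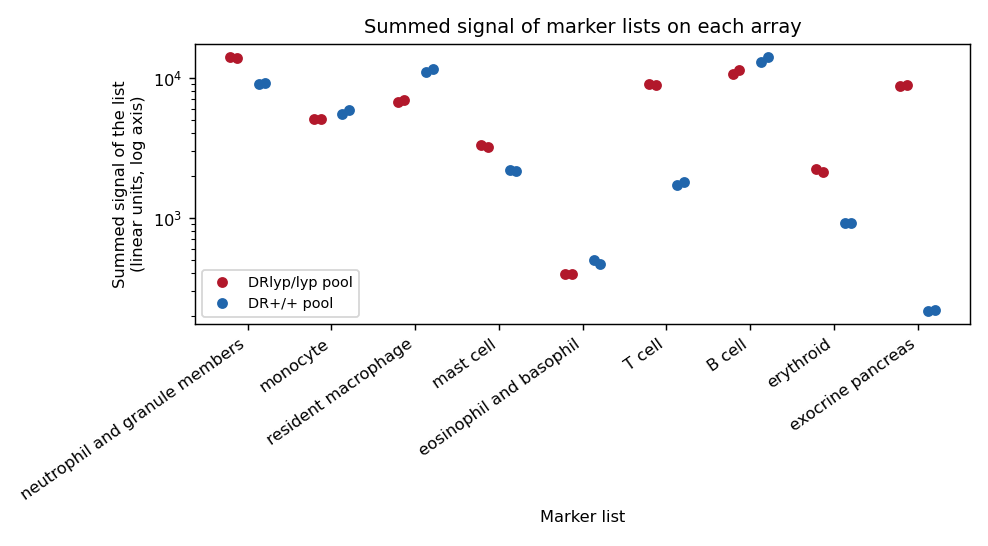
Summed signal of each marker list on each array (points, linear units on a log axis; brightest probe set of each gene), with the DRlyp/lyp pool left of the DR+/+ pool. The member genes, mast cell, T cell, erythroid and exocrine pancreas sums are higher in the DRlyp/lyp pool and the other 4 are lower, with no overlap between the pools in any list.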

How the data were processed

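The authors deposited 1 linear intensity per probe set and array of the Affymetrix rat genome array, made after amplification in 2 cycles from about 50 ng of RNA per the labels' design text; the program that made them is not given in the sources used here. Their 2% trimmed mean was 150.1 on every array, so the authors' scaling was kept. Groups and replicate numbers came from the titles, with DP and DR read through the descriptions as DRlyp/lyp and DR+/+.

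After 57 control sets were left out, values were floored at 6.8 and log2 transformed, and 16068 probe sets were tested with limma 3.58.1 in R 4.3.3 (lmFit, eBayes with an intensity trend, 2 residual degrees of freedom), two-sided, with Benjamini-Hochberg adjustment over all of them and a threshold of 0.05. The code of the test was run on simulated data with independent noise and few changed probe sets. That setting is unlike these arrays, where calls were frequent, so it checks the code only. Differences are DRlyp/lyp minus DR+/+. Medians, counts and marker sums use 1 probe set per gene. The number of arrays limits the precision. Symbols came from the platform's annotation; the 7 member probe sets matched RefSeq with 0 changes. Named are all members, for each list up to 3 genes called in either direction (or else the brightest), up to 2 examples per marker list, the 3 genes nearest to the member with the largest called difference, and, chosen after their values were seen, the dim genes, Ctsc, Cybb, Mcpt1 and Csf3. The members, lists and alternatives were chosen with earlier results of these data known. Alternatives covered scaling, filter, floor, a replicate block, left-out arrays, the intensity trend, a fold minimum and averaged probe sets. Figures were drawn with matplotlib 3.10.9.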

Additional observations from a re-analysis of the deposited data

How the results depend on the processing

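All 6 tested members stayed higher in the DRlyp/lyp pool under every alternative that gave a value. The call on S100a8 was lost without a filter (0.92, adjusted p = 0.180) and without an intensity trend (0.92, adjusted p = 0.0519). Without a filter the calls on Fcnb (0.96, adjusted p = 0.0559) and Lyz2 (0.55, adjusted p = 0.0687) were also lost, and 1 member was called in place of 4; of the 31042 probe sets then fitted, 3502 sat at the floor on all 4 arrays. With a 2-fold minimum 0 were called. With 1 array left out, the log2 difference ranged from 0.65 to 1.20 for S100a8, 0.15 to 0.41 for S100a9, 0.85 to 1.08 for Fcnb, 0.53 to 0.58 for Lyz2, 0.62 to 0.73 for Csf3r and 0.07 to 0.89 for Camp, with 3 to 5 members called higher. Camp gave no value with the filter at the 75th percentile. Of the 7 pathway lists, 12 genes were higher and 8 lower. Without a filter these were 4 and 3, and without an intensity trend 6 were higher. With the filter at the 75th percentile 5 were lower, and Mmp8, Itgam, Cxcl1 and Il6 were no longer tested. Cybb changed sign after quantile normalization (log2 difference -0.0883), with arrays centred on the median (-0.0708) and when its probe sets were averaged (-0.709). Other causes were not tested.

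Centring each array on its median moved the median of all probe sets to -0.12 and the share of calls that were higher to 35.9%, against 49.3% as deposited; the 4 member calls held. With the replicate number as a block, 4 members were again called (S100a8 0.92, adjusted p = 2.59e-07; Csf3r 0.68, adjusted p = 0.000160) and 13 pathway genes were higher and 9 lower. Same-numbered arrays shared only a number: their deviations from the pool means correlated by 0.04. The adjusted p-values with the block, smaller than those without it, are therefore not stronger evidence.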
